A study of Mus musculus with 12 samples.

Results

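The 9 genes described here are Wdfy1 and 8 genes of TLR3 signaling and the interferon response: Tlr3, Ticam1, Irf3, Irf7, Ifit1, Ifit3, Isg15 and Nfkbia. They were taken by symbol from a table of 23420 gene symbols. Wdfy1 was selected on its higher read level in Siah2 KO livers of both sexes in earlier results of these data, and the other 8 were added to ask whether that difference came with a change in the pathway the WDFY1 protein acts in. The values of Wdfy1 between genotypes are therefore a description and carry no test.

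SIAH2 attaches ubiquitin to other proteins, and the study asked how its loss alters gene expression in the liver of each sex. Livers were collected at Zeitgeber time (ZT) 10, under a light cycle with lights off at ZT12, from mice about 20 weeks old on a C57BL/6 background that had free access to normal chow. The 4 groups were wild type females (mice 1089, 1090 and 1091), Siah2 KO females (1070, 1104 and 1105), wild type males (1055, 1086 and 1087) and Siah2 KO males (1075, 1076 and 1081), with 3 mice in each. Every KO mouse was homozygous for the Siah2 deletion in all tissues, and no mouse received an agent. The wild type and KO mice came from related homozygous lines set up from intercrossed heterozygotes, so that a difference between lines and an effect of the Siah2 deletion cannot be told apart. Libraries were made with QuantSeq, which reads from near the poly(A) tail, so that a longer transcript does not give more reads. Each sample is taken as 1 liver, as the study has it. The labels speak of pools of 3 mice, and if they were right the spread between samples would be that between pools.

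Toll-like receptor 3 (TLR3) sits in the endosome and binds double-stranded RNA. It signals through a single adaptor, TRIF, encoded by Ticam1. TRIF assembles TRAF proteins and kinases, of which TBK1 phosphorylates IRF3 and the IKK complex releases NF-κB from its inhibitor IκBα, encoded by Nfkbia. IRF3 turns on interferon β and a first set of target genes, and interferon then acts through its receptors, JAK kinases and STAT proteins to induce IRF7 and a wide group of interferon-stimulated genes, among them Ifit1, Ifit3 and Isg15. WDFY1 carries a FYVE domain, which binds a lipid of early endosomes, and WD repeats, and has been described as a helper that brings TRIF to TLR3 and TLR4. In the liver, TLR3 and the interferon genes are used by hepatocytes and by the resident macrophages, the Kupffer cells. In whole tissue, fewer cells of a type and less RNA per cell cannot be told apart.

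Most interferon-stimulated genes are read through the interferon-stimulated response element (ISRE), a repeated GAAA bound by IRF and STAT-containing complexes. Promoter sequence, taken from RefSeq on build GRCm38.p6, was found for 8 of the 9 genes, all but Wdfy1. The 250 bases before the transcript start were searched on both strands for the ISRE core, spelled GAAA, any 2 bases and GAAA again, and for an NF-κB motif, spelled GGG, any 2 bases, TT, any 1 base and CC. The ISRE core was present in 2.98% and the NF-κB motif in 4.11% of 32851 promoters. The interferon targets Isg15, Ifit3 and Ifit1 held the ISRE core, and the windows around it are shown because these are the readouts of the pathway in the results that follow, with the matched bases in capitals.
Isg15, chr4:156200855-156200916, minus strand: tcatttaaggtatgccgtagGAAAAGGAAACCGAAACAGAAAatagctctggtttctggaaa
Ifit3, chr19:34583353-34583436, plus strand: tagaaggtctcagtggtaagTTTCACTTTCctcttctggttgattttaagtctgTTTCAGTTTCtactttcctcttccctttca
Ifit1, chr19:34640765-34640833, plus strand: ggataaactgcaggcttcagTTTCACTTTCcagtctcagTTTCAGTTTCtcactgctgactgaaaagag

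The Ifit3 window precedes the transcript used in the promoter table, which starts inside the annotated span of the gene. Isg15 held 3 overlapping matches between 78 and 57 bases before the start. Ifit3 held 2 matches, the first beginning 156 bases before the start, and Ifit1 held 2, the first beginning 104 bases before it. Ticam1, Tlr3, Irf3, Irf7 and Nfkbia held no match in this window. The NF-κB motif was found 1 time each in Nfkbia, which NF-κB is known to induce as its own inhibitor, in Tlr3 and in Ifit1, and the first of these is shown with the motif in capitals.
Nfkbia, chr12:55492648-55492696, minus strand: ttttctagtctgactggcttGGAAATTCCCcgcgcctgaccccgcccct

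Of a list of 89 interferon-stimulated genes described further on, 70 had a promoter entry and 24 of these held the ISRE core (34.3%). Of the 25 genes of a TLR3 signaling list with an entry, 0 held the ISRE core and 6 held the NF-κB motif (24.0%). A match of letters is a description and not evidence of binding in these livers.

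The depth ranged from 1293688 to 4056144 counted reads per mouse, and levels are given as counts per 1000000 reads (CPM) after TMM scaling. At this depth the interferon genes rested on few reads, and the shallowest libraries were wild type male 1055 and Siah2 KO female 1105. Wild type female 1091 stood apart from the other wild type females: the chi-square of its counts against each of them, per degree of freedom, was 42.0 and 45.0, while the other 10 pairs of mice within a group ranged from 6.71 to 21.8. Its removal raised the number of calls in females, and list genes that edgeR then called there are given beside their lists. Siah2 itself was lower in KO than in wild type mice by 0.34 on the log2 scale in females (adjusted p = 0.641) and by 0.67 in males (adjusted p = 0.9999, edgeR), and this does not check the labels, since no source used here says where its 3′ reads lie relative to the deleted part. Summed CPM of 11 hepatocyte markers ranged from 45663 to 87036 over the 12 mice, and every library was of liver by these markers.

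Wdfy1, on chromosome 1 at chr1:79702262-79776143 (GRCm38.p6), was higher in every Siah2 KO mouse than in every wild type mouse. In females it was at 14.1, 13.2 and 8.28 CPM in wild type mice 1089, 1090 and 1091, and at 24.6, 40.5 and 49.96 CPM in KO mice 1070, 1104 and 1105. In males it was at 15.3, 9.05 and 7.74 CPM in wild type mice 1055, 1086 and 1087, and at 35.8, 25.6 and 29.6 CPM in KO mice 1075, 1076 and 1081. The lowest KO mouse was a female and the highest wild type mouse a male, and no value of one genotype fell into the range of the other, within a sex or across both. Among all genes tested, 11.4% were higher without overlap in KO females, 4.45% in KO males and 0.155% in all KO mice. The means were 11.9 ± 3.13 CPM in wild type and 38.4 ± 12.8 CPM in KO females (SD, n = 3 each), a ratio of 3.24. In males they were 10.7 ± 4.04 and 30.3 ± 5.14 CPM (SD, n = 3 each), a ratio of 2.84.

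**Figure D1:**
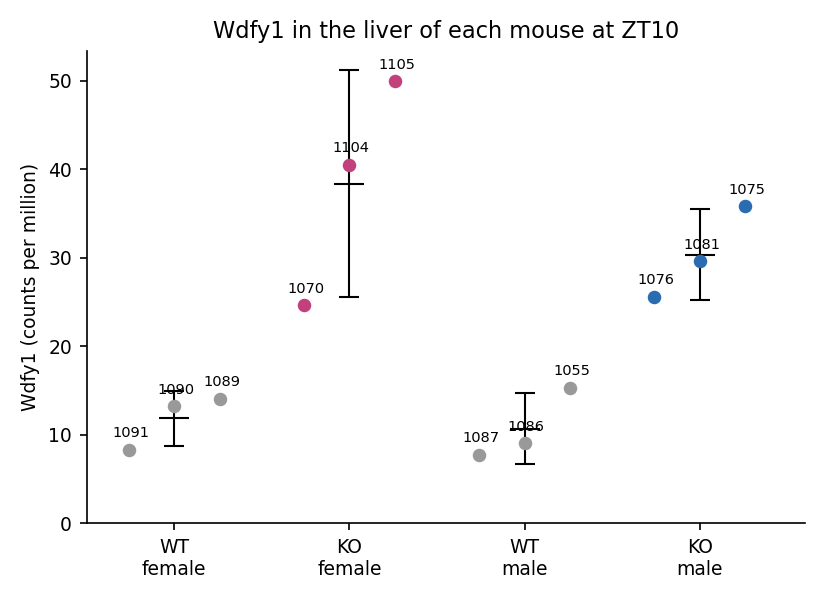
Wdfy1 in CPM (vertical axis) in each of the 12 mice, by group, with mouse numbers; the bars are the mean and SD of 3 mice. All 6 KO mice, from 24.6 to 49.96 CPM, sit above all 6 wild type mice, from 7.74 to 15.3 CPM.

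On the log2 scale the fitted difference was 1.67 in females (SE 0.34), 1.57 in males (SE 0.29) and 1.60 with the sexes combined (SE 0.24). The female difference minus the male difference was 0.10 (SE 0.47). Ordered by log2 fold change, Wdfy1 stood at place 56 of 9465 genes tested in females, 7 of 8823 in males and 1 of 9020 with the sexes combined. Leaving out any 1 mouse gave between 1.44 and 1.92 in females, between 1.36 and 1.86 in males and between 1.48 and 1.70 with the sexes combined. Wdfy1 did not differ detectably between wild type females and wild type males, a comparison that did not choose it (log2 difference 0.21, adjusted p = 0.794, edgeR). The 5′ end of Wdfy1 overlaps that of Mrpl44, a mitochondrial ribosomal protein gene on the opposite strand, by 126 bases, and this overlap lies away from the 3′ ends that QuantSeq reads.

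No gene around Wdfy1 was called between genotypes in either sex, where edgeR called 0% of all genes tested. Within 1 Mb of its start the annotation holds 28 other genes, of which 8 code for proteins. The tables listed 9 of the 28, and 4 had enough counts to be tested. Mrpl44 differed between genotypes by 0.31 on the log2 scale in females and 0.12 in males. Cul3, a ubiquitin ligase scaffold, differed by 0.26 and -0.04, Serpine2, a protease inhibitor, by -0.07 and 0.09, and Dock10, a guanine nucleotide exchange factor, by -0.70 and -0.34. The smallest adjusted p among them was 0.531, for Dock10 in females (edgeR).

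Across the 12 mice, the genes whose log2 CPM moved most like that of Wdfy1 were Copz2, a coat protein subunit (Pearson r 0.87), Rgp1, part of an exchange factor for the GTPase Rab6 (0.85), Tmem68 (0.85), Rnf150 (0.83) and Usp31 (0.83), out of 8379 genes compared. At the other end were Tfpi, the tissue factor pathway inhibitor (-0.85), Rhbdd1 (-0.82) and 2700060E02Rik (-0.82). The 8 pathway genes lay far from either end, between -0.33 for Irf7 and 0.16 for Tlr3. These values describe 12 mice in 4 groups that share genotype and depth, and carry no test.

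None of the 8 pathway and interferon genes was called between genotypes in either sex at an adjusted p under 0.05. In females 0 of 8 were called by edgeR, against 0% of the 9465 genes tested, and 1 of 8 had an unadjusted p under 0.05, against 15.6% of all genes. In males 0 of 7 were called, against 0% of 8823, and 0 of 7 had an unadjusted p under 0.05, against 4.05%. Ifit1 had too few counts to be tested in males. DESeq2 and limma-voom also called 0 of these genes in either sex. With the sexes combined 0 of 8 were called, against 0.0111% of 9020 genes, and 0 of 8 had an unadjusted p under 0.05, against 5.65%. In direction they were even, with 4 of 8 higher and 4 lower in KO females, against 47.3% of all genes higher, and 3 of 7 higher and 4 lower in KO males, against 48.1%.

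**Figure D2:**
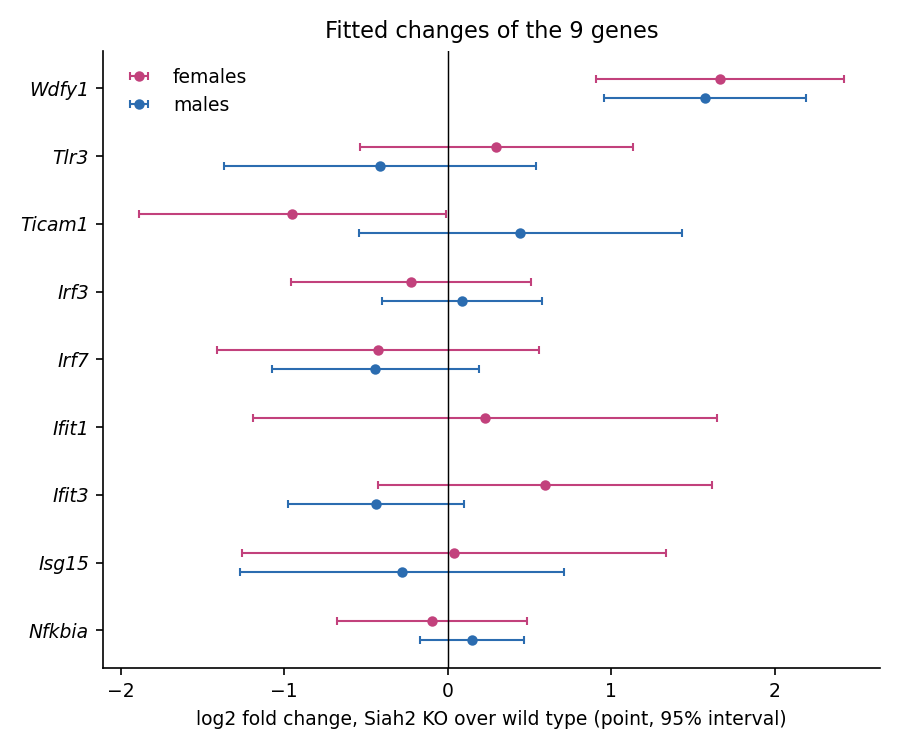
Fitted log2 fold changes of Siah2 KO over wild type (horizontal axis; points, with 95% intervals as bars) for the 9 genes in females and males. Wdfy1, shown as a description since its difference chose it, lies at 1.67 and 1.57, while 14 of the other 15 intervals reach across 0 and that of Ticam1 in females ends at -0.01; Ifit1 in males was not tested.

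Tlr3, the double-stranded RNA receptor (chr8:45395665-45411075), was at 8.66, 5.40 and 12.4 CPM in wild type and 8.93, 12.1 and 12.04 CPM in KO females. Males had 7.65, 4.02 and 4.64 CPM in wild type mice and 4.15, 3.04 and 4.44 CPM in KO mice. The genotypes overlapped in both sexes. The log2 difference was 0.30 in females (95% interval -0.54 to 1.13, adjusted p = 0.757) and -0.42 in males (-1.37 to 0.53, adjusted p = 0.9999, edgeR).

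Ticam1, which encodes the adaptor TRIF (chr17:56269462-56276767), was the gene of the 8 that differed most between genotypes in females, and it was lower, not higher. Wild type females were at 9.02, 8.70 and 7.64 CPM and KO females at 4.87, 5.89 and 1.81 CPM. The highest KO female was below the lowest wild type female, as for 11.9% of all genes tested in females. These are 3 to 29 reads per mouse. The log2 difference was -0.95 (95% interval -1.89 to -0.01), with an unadjusted p of 0.0481 and an adjusted p of 0.314 (edgeR). In males the values overlapped, at 2.29, 3.02 and 4.64 CPM in wild type and 3.77, 4.34 and 6.16 CPM in KO mice (log2 difference 0.44, adjusted p = 0.9999). The female change minus the male change was -1.39 (SE 0.62, unadjusted p = 0.0382, adjusted p = 0.322), and so did not pass the threshold.

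The transcription factors of the pathway overlapped between genotypes. Irf3, the factor that TBK1 activates (chr7:44997648-45002848), was at 24.2, 19.8 and 37.9 CPM in wild type and 20.02, 19.2 and 32.5 CPM in KO females. Males had 21.4, 18.1 and 19.2 CPM in wild type and 19.98, 19.97 and 22.2 CPM in KO mice. Its log2 difference was -0.23 in females (95% interval -0.96 to 0.51) and 0.08 in males (-0.41 to 0.57). IRF3 is switched on by phosphorylation, so that its transcript level does not report its activity. Irf7, which is itself induced by interferon (chr7:141263183-141266499), was at 23.1, 10.2 and 31.5 CPM in wild type and 13.0, 24.3 and 10.8 CPM in KO females. In males it was at 9.94, 13.6 and 14.9 CPM in wild type and 10.6, 8.25 and 10.1 CPM in KO mice. Its log2 difference was -0.43 in females (95% interval -1.41 to 0.56) and -0.44 in males (-1.08 to 0.19).

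**Figure D3:**
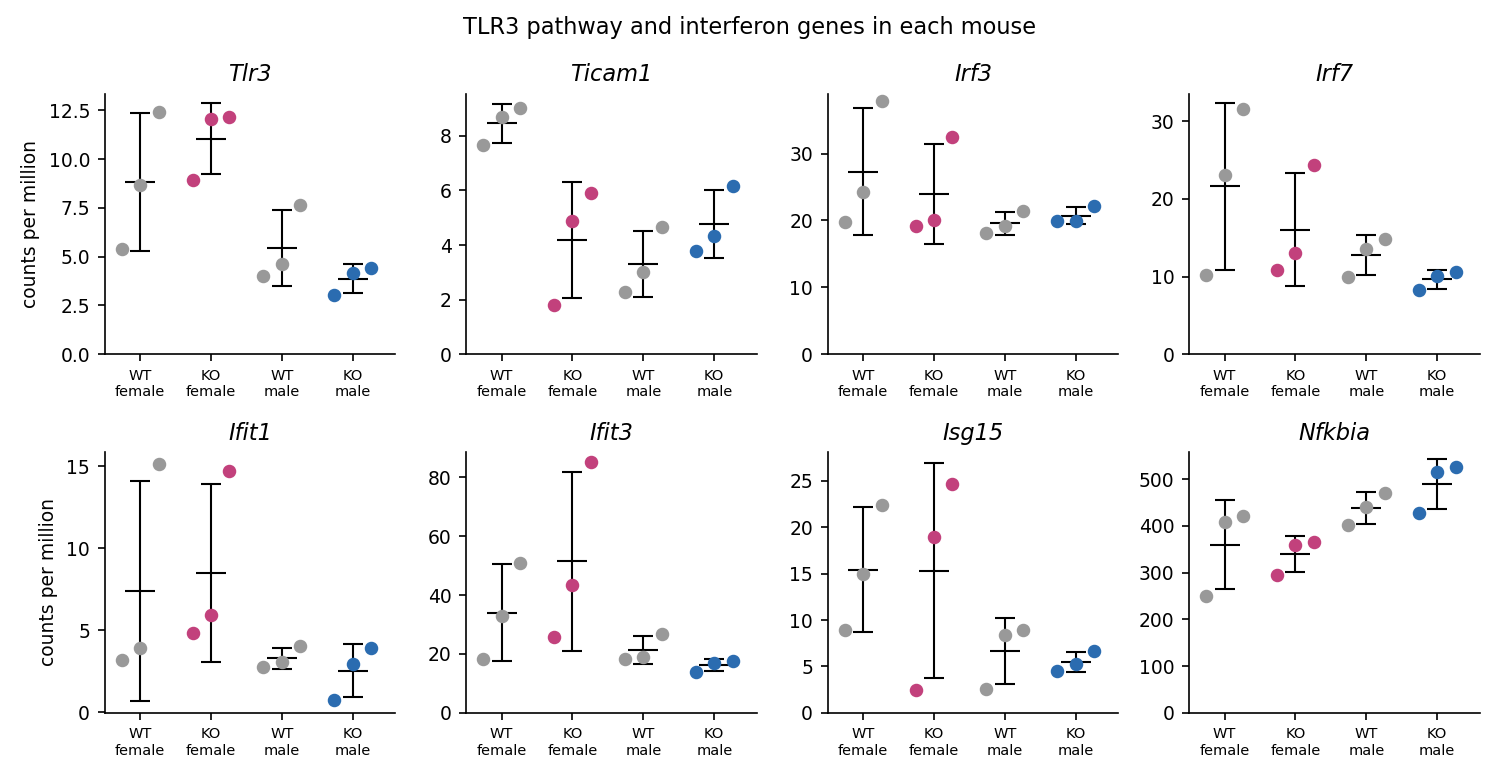
CPM (vertical axes, each from 0) of the 8 pathway and interferon genes in each mouse, by group, with the mean and SD of 3 mice as bars. Ticam1 separates the female groups with KO below wild type and Ifit3 the male groups with KO below wild type, and in the other panels the 2 genotypes of a sex overlap.

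The interferon targets whose ISRE sequences are printed above varied widely between females of one genotype. Ifit3, an antiviral tetratricopeptide protein (chr19:34583119-34588982), was at 32.8, 18.3 and 51.0 CPM in wild type and 43.6, 85.1 and 25.9 CPM in KO females. The male values were 18.3, 19.1 and 26.9 CPM in wild type and 17.7, 13.9 and 17.0 CPM in KO mice. The female groups overlapped, and every KO male was below every wild type male, as for 4.42% of all genes tested in males, though the closest mice were 17.7 and 18.3 CPM. The log2 difference was 0.60 in females (95% interval -0.42 to 1.61, adjusted p = 0.582) and -0.44 in males (-0.98 to 0.10, adjusted p = 0.9999, edgeR). The female change minus the male change was 1.03 (SE 0.57, adjusted p = 0.446). Without wild type female 1091, which had the highest wild type value, the female difference was 1.04 (unadjusted p = 0.0305, adjusted p = 0.143). Ifit3 has a near-identical neighbour, Ifit3b, listed as I830012O16Rik, whose log2 difference was 0.50 in females and -0.12 in males. How reads that match both genes were counted was not examined, so that the split of reads between the 2 genes is uncertain.

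Ifit1, which binds viral RNA lacking a self mark (chr19:34640889-34650009), was at 15.2, 3.90 and 3.19 CPM in wild type and 5.95, 14.7 and 4.82 CPM in KO females. One mouse of each genotype, wild type 1089 and KO 1104, was high and the other 4 were low. In males it was between 0.75 and 4.02 CPM in all 6 mice, which is 2 to 12 reads. Its log2 difference in females was 0.23 (95% interval -1.20 to 1.65, adjusted p = 0.905).

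Isg15, a ubiquitin-like modifier (chr4:156199424-156200818), was at 22.38, 15.005 and 8.918 CPM in wild type and 18.9, 24.7 and 2.41 CPM in KO females. The male values were 8.41, 2.51 and 8.97 CPM in wild type and 4.52, 5.21 and 6.65 CPM in KO mice. The lowest female of all was KO 1105, the mouse with the highest Wdfy1, and its Isg15 value rests on 4 reads. The log2 difference was 0.04 in females (95% interval -1.26 to 1.33) and -0.28 in males (-1.27 to 0.71), and a log2 difference of 1 in either direction lies inside the female interval.

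Nfkbia, the NF-κB inhibitor whose promoter motif is shown above (chr12:55489409-55492647), was the best measured of the 8. It was at 250.5, 420.7 and 408.3 CPM in wild type and 365.0, 295.0 and 358.2 CPM in KO females. Males were at 402.1, 441.4 and 471.3 CPM in wild type and 516.1, 525.2 and 428.3 CPM in KO mice. The genotypes overlapped in both sexes, with log2 differences of -0.10 in females (95% interval -0.68 to 0.48, adjusted p = 0.899) and 0.15 in males (-0.17 to 0.47, adjusted p = 0.9999, edgeR).

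The wider pathways were described by lists written with earlier results of these data known. Each list is given by its counts and median beside those of all genes, whose median log2 difference was -0.03 in females and -0.01 in males. No gene of any of the lists was called in females or in males by edgeR with its default filter and all 6 mice of a sex. In the TLR3 signaling list (30 genes, 5 of them described above), 28 were tested in females, with a median log2 difference of -0.07, and 3 were higher and 2 lower at an unadjusted p under 0.05, against 7.30% and 8.31% of all genes. The 3 were Nfkb1, an NF-κB subunit (1.36, adjusted p = 0.118), Birc2, a ubiquitin ligase of the receptor complex (1.26, adjusted p = 0.123), and Traf6, a ubiquitin ligase downstream of TRIF (1.41, adjusted p = 0.160). Traf6 was at 7.58, 8.40 and 2.55 CPM in wild type and at 17.1, 13.3 and 19.9 CPM in KO females. Males were at 14.5, 16.1 and 15.5 CPM in wild type and 14.7, 11.7 and 14.1 CPM in KO mice. The KO females thus lay near the males of both genotypes, and the wild type females lay below them. In males 27 genes of this list were tested, the median was 0.03, and 0 had an unadjusted p under 0.05, against 4.05% of all genes.

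Among 17 genes of TLR4 and MyD88 signaling, the other receptor route that WDFY1 has been linked to, 10 were tested in females, with a median of -0.36, and 0 were higher and 2 lower at an unadjusted p under 0.05, against 7.30% and 8.31% of all genes. Without wild type female 1089 the median was -0.019. The 2 were Lbp, which carries bacterial lipopolysaccharide to its receptor (-1.12, adjusted p = 0.120), and Irak2, a kinase downstream of MyD88 (-0.92, adjusted p = 0.267). Lbp was at 161.0, 159.0 and 86.6 CPM in wild type and at 59.5, 57.4 and 72.8 CPM in KO females. The 6 males were between 48.3 and 77.9 CPM. The median of the list in males was 0.01, with 9 tested and 0 at an unadjusted p under 0.05, against 4.05% of all genes.

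Of 24 inhibitors and targets of NF-κB, 12 were tested in females, with a median of -0.16. At an unadjusted p under 0.05, 2 were higher and 2 lower (16.7% each), against 7.30% and 8.31% of all genes. Cxcl1, a neutrophil-attracting chemokine, was at 13.4, 4.80 and 8.28 CPM in wild type and 69.8, 36.5 and 17.5 CPM in KO females (log2 difference 2.25, adjusted p = 0.107). Bcl3, a nuclear IκB protein, was at 15.9, 15.3 and 7.96 CPM in wild type and 4.60, 2.95 and 3.61 CPM in KO females (-1.79, adjusted p = 0.106). In both genes every KO female lay outside the range of the wild type females, as for 11.4% of all genes above it and 11.9% below it. DESeq2 called both (adjusted p = 0.00231 and 0.0299), and also Nfkb1 (0.0444), Birc2 (0.0169) and Lbp (0.0179). edgeR called these 5 genes too once all 12 mice shared a fit (adjusted p 0.0173 to 0.0265), and Traf6 with them (0.0318). Without mouse 1091, edgeR called the 5 in the same directions, with adjusted p = 0.00316 for Lbp, 0.00702 for Bcl3, 0.0148 for Birc2, 0.0266 for Cxcl1 and 0.0322 for Nfkb1. With no filter beyond 1 count edgeR also called all 5. The calls on these genes in females thus depend on the tool, the filter and the mice in the fit. Over all genes in females, DESeq2 called 305. There edgeR called 427 with all 12 mice in 1 fit, 936 without mouse 1091 and 484 with no filter beyond 1 count. In males 9 genes of this list were tested, with a median of 0.01. Nfkbiz, another nuclear IκB protein, was the only one at an unadjusted p under 0.05 (-0.89). This was 1 of 9 (11.1%), against 2.43% of all genes lower in males.

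Among 18 interferon receptor and JAK-STAT genes, 15 were tested in females, with a median of -0.12, and 3 were lower at an unadjusted p under 0.05. These were the kinase Jak2 (-0.93, adjusted p = 0.160), the type I receptor chain Ifnar2 (-0.67, adjusted p = 0.199) and the interferon γ receptor chain Ifngr1 (-1.22, adjusted p = 0.203). Leaving out mouse 1091, edgeR called Ifnar2 (adjusted p = 0.0265) and Ifngr1 (0.00705) lower in KO females, in a fit that called 9.64% of all genes. With all 12 mice in 1 fit Jak2 was called (0.0495), as were 4.35% of all genes. In males 14 were tested with a median of -0.09. There 0 were higher and 1 lower at an unadjusted p under 0.05, against 1.62% and 2.43% of all genes. Of 13 cytosolic sensors of nucleic acid, which reach IRF3 by another route, 9 were tested in females (median 0.19) and 7 in males (median -0.18). Trim25, higher in KO females, was the only one at an unadjusted p under 0.05. It was 1 of 9 (11.1%), against 7.30% of all genes higher in females, and males had 0 of 7, against 4.05%. The WDFY family and early endosome list (21 genes) had a median of -0.31 in females over 15 genes tested, with 2 higher and 13 lower, Wdfy1 left aside, against 47.3% of all genes higher. At an unadjusted p under 0.05, 1 was higher (6.67%, against 7.30% of all genes) and 2 were lower (13.3%, against 8.31%). Pikfyve, a kinase of endosomal lipids, was higher (0.84, adjusted p = 0.167), and Rab5c (-0.63, adjusted p = 0.212) and Snx1 (-0.71, adjusted p = 0.265), both of early endosomes, were lower in KO females. edgeR called Snx1 without mouse 1091 (adjusted p = 0.0445) and Pikfyve with all 12 mice in 1 fit (0.0390). These fits called 9.64% and 4.35% of all genes. In males its median was 0.03.

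The list of 89 interferon-stimulated genes had a median close to 0 between genotypes in females and mostly lower values in KO males. In females 71 were tested, with a median log2 difference of 0.06, and 41 were higher and 30 lower in KO mice. Leaving out 1 female moved the median between -0.07, without wild type mouse 1090, and 0.28, without wild type mouse 1089. Of the 71, 4 were higher (7.30% of all genes were) and 1 lower (8.31% of all genes) at an unadjusted p under 0.05. In the fit that left out mouse 1091 the median was 0.19, 11 of 73 were higher and 3 lower at an unadjusted p under 0.05, against 13.9% and 12.6% of all genes there, and 4 were called (5.48%, against 9.64% of all genes).

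In males 58 were tested, with a median of -0.28, and 9 were higher and 49 lower in KO mice, against 48.1% of all genes higher. Of these, 8 were lower at an unadjusted p under 0.05, or 13.8% against 2.43% of all genes, and 0 were higher, against 1.62%. The number at an unadjusted p under 0.05 in either direction was 3 without wild type male 1087 and 11 without wild type male 1055. None was called by edgeR (smallest adjusted p 0.9999), and genes of a shared response are not independent of each other. In 11 of the 58 every KO male was below every wild type male, against 4.42% of all genes. With other scaling, filters and tests on all mice the median stayed between -0.29 and -0.26, and leaving out any 1 male moved it between -0.40 and -0.13. It was nearest to 0 without wild type male 1087, the wild type male with the highest interferon-stimulated genes.

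**Figure D4:**
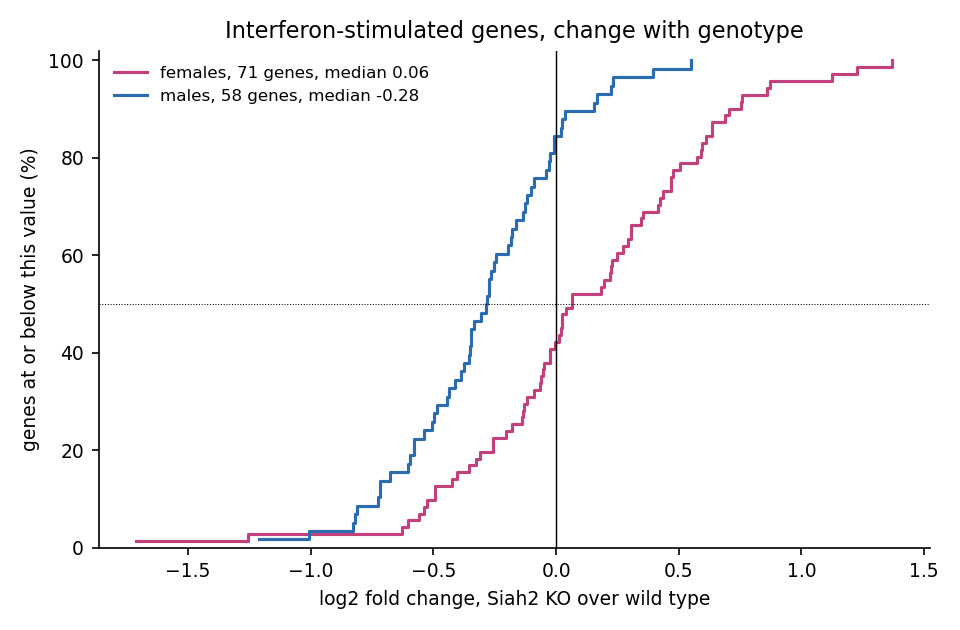
Cumulative share of the interferon-stimulated genes tested (vertical axis, %) at or below each log2 fold change of Siah2 KO over wild type (horizontal axis), for 71 genes in females and 58 in males. The female curve crosses 50% at 0.06, close to 0, and the male curve at -0.28, with 49 of 58 genes below 0.

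The genes with the smallest p in males were Irgm2, an interferon-inducible GTPase, Rsad2, the antiviral enzyme viperin, and Ifi27l1 (-0.50). Irgm2 was at 79.5, 94.0 and 121.9 CPM in wild type males and 60.7, 68.6 and 59.2 CPM in KO males (log2 difference -0.67, SE 0.19, unadjusted p = 0.00301, adjusted p = 0.9999). Rsad2 was at 29.8, 49.8 and 32.5 CPM in wild type males and 19.98, 23.0 and 21.7 CPM in KO males (-0.81, SE 0.24, unadjusted p = 0.00443). In Irgm2 and Rsad2 no KO male reached the lowest wild type male. In females Irgm2 differed by 0.64, in the other direction, and Rsad2 by -0.06. The female change minus the male change was 1.31 for Irgm2 (unadjusted p = 0.00754, adjusted p = 0.173). Over the list the female change minus the male change had a median of 0.53 over 70 genes, with 51 above 0 (48.4% of all genes were), 9 above and 0 below 0 at an unadjusted p under 0.05 (7.12% and 6.98% of all genes) and 0 called, against 0.255% of all 9806 genes. Leaving out 1 mouse moved this median between 0.26, without wild type female 1090, and 0.68, without KO female 1105. Without wild type female 1091 it was 0.49 and 3 of 75 were called, against 5.15% of all genes in that fit.

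The female genes with the smallest p were Trim21, an antibody receptor and ubiquitin ligase, Trim25, a ubiquitin ligase of the RIG-I route, and Helz2, a helicase. Trim21 was at 7.22, 5.10 and 4.14 CPM in wild type and 13.8, 14.7 and 14.5 CPM in KO females (1.37, adjusted p = 0.115). Trim25 was at 108.7, 111.0 and 366.9 CPM in wild type and 498.4, 388.5 and 499.0 CPM in KO females (1.23, adjusted p = 0.217). All 6 males, of both genotypes, had Trim25 between 264.8 and 399.1 CPM, so that wild type females 1089 and 1090 stood below every other mouse. Helz2 was lower in KO females (-1.71, adjusted p = 0.222), at 39.3, 26.4 and 7.64 CPM in wild type and 3.52, 6.26 and 14.5 CPM in KO mice, which overlapped. Without mouse 1091 edgeR called all 3, Trim21 at 1.22 (adjusted p = 0.0339), Trim25 at 2.07 (0.00104) and Helz2 at -2.17 (0.0128), and with no filter beyond 1 count it called them with all females in the fit. These fits called 9.64% and 2.82% of all genes.

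Interferon-stimulated genes also varied from mouse to mouse within a group. Of the 70 genes tested over all mice, the number above their own mean over the 12 mice was 59, 28 and 47 in wild type females 1089, 1090 and 1091, and 58, 63 and 36 in KO females 1070, 1104 and 1105. In males it was 20, 21 and 39 in wild type mice 1055, 1086 and 1087, and 14, 12 and 20 in KO mice 1075, 1076 and 1081. In females the genotypes interleaved, while 2 of the 3 KO males were below all wild type males and the third equalled the lowest of them. Wdfy1 did not follow this order: KO female 1105, with the most Wdfy1, had the fewest such genes of the KO females, and the KO males had high Wdfy1 and counts among the lowest of the 12 mice.

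**Figure D5:**
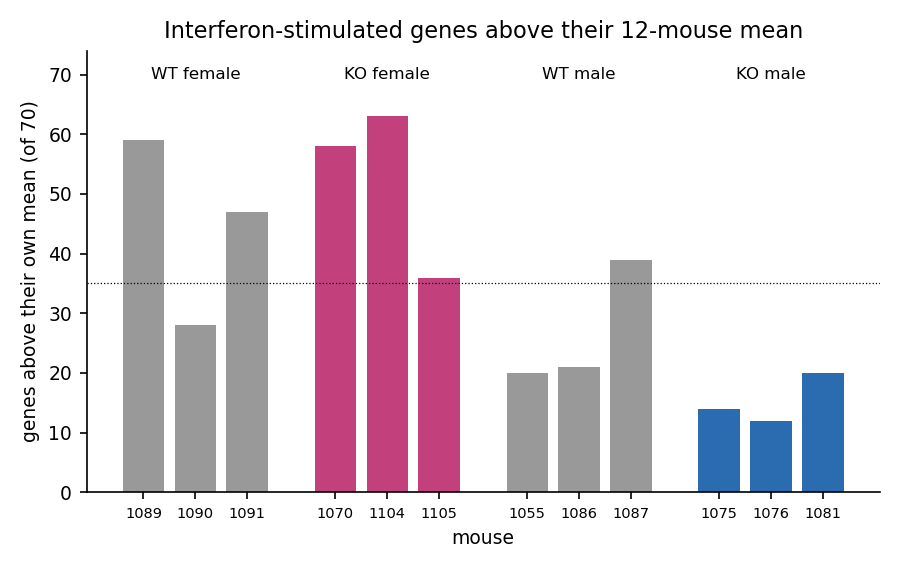
Number of interferon-stimulated genes, of 70, above their own mean over the 12 mice (vertical axis) for each mouse, by group; the dotted line marks 35 of the 70 genes. The females range from 28 to 63 and the males from 12 to 39, with the 3 KO males between 12 and 20.

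Between wild type females and wild type males most of the pathway genes had higher values in females, though none passed the test. Of the 8 genes other than Wdfy1, 7 were higher in wild type females than in wild type males, against 52.0% of all genes. In this comparison 0 of 9 genes, Wdfy1 included, were called, against 5.15% of 9806 genes tested, and 1 of 9 was higher at an unadjusted p under 0.05, against 9.90%. That gene was Ticam1, with a log2 difference of 1.25 (SE 0.44, unadjusted p = 0.0113, adjusted p = 0.115), and all 3 wild type females were above all 3 wild type males, as for 11.5% of all genes. Isg15 differed by 1.19 (adjusted p = 0.268), Ifit1 by 1.15 (0.362), Tlr3 by 0.75 (0.306), Irf7 by 0.72 (0.314), Ifit3 by 0.64 (0.403) and Irf3 by 0.49 (0.356), while Nfkbia was lower in females (-0.28, adjusted p = 0.490). Ticam1 in KO females, at 1.81 to 5.89 CPM, lay in the range of the males of both genotypes, at 2.29 to 6.16 CPM, but for the lowest KO female.

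Of the interferon-stimulated genes, 61 of 70 were higher in wild type females, with a median log2 difference of 0.49 beside 0.02 for all genes. At an unadjusted p under 0.05, 18 were higher and 1 lower, against 9.90% and 10.1% of all genes, and 3 were called higher (4.29%, against 5.15% of all genes called). limma-voom called 1 (1.43%, against 5.05%), and edgeR with no filter beyond 1 count called 11 (12.6%, against 4.49%). The 3 were Usp18, the protease that removes ISG15 (2.46, adjusted p = 0.0313), Ifi44 (2.35, adjusted p = 0.0277) and Shisa5 (1.20, adjusted p = 0.0193). Among the TLR3 signaling genes, 3 were called lower in wild type females: Traf6 (-1.31, adjusted p = 0.0440), Ikbkg, the regulatory subunit of the IKK complex (-0.97, adjusted p = 0.0112), and Birc2 (-1.07, adjusted p = 0.0440). These genes were named after their values were seen.

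Markers of Kupffer cells moved with sex as well. Of 12 markers 11 were tested, and 10 were higher in wild type females, against 52.0% of all genes, and 4 were called, against 5.15%. Their median log2 difference was 1.26, and 0.96 without wild type male 1087 to 2.07 without wild type male 1086. Their summed level was 513.2 to 695.9 CPM in the females and 102.4 to 642.9 CPM in wild type males, of which 1086 was the highest, and each of the 12 markers had reads. The genotypes overlapped in these sums, at 384.8 to 871.3 CPM in KO females and 115.8 to 264.6 CPM in KO males. Between genotypes the median over the markers was -0.43 in females and -0.54 in males. At an unadjusted p under 0.05, 0 of 11 were higher and 2 lower in females, against 7.30% and 8.31% of all genes. In males 0 of 7 were higher and 1 lower, against 1.62% and 2.43%. With all mice of a sex and the default filter edgeR called no marker. With no filter beyond 1 count it called Marco higher in KO females (1.41, adjusted p = 0.000458) and lower in KO males (-2.45, adjusted p = 1.03e-21). Those fits called 2.82% and 0.179% of all genes. Leaving out 1 mouse moved the female median between -0.81, without KO 1070, and -0.12, without KO 1104. The male median was -1.14 without KO 1075 and 0.40, of the other sign, without wild type 1086. Without wild type female 1091 edgeR called the Kupffer cell markers Vsig4 (-1.29, adjusted p = 0.0128) and C1qa (-1.01, adjusted p = 0.0164) lower in KO females. It likewise called the endothelial marker Pecam1 (-1.44, adjusted p = 0.0118), the stellate cell marker Dcn (-0.99, adjusted p = 0.0125) and the hepatocyte marker Apob (-1.55, adjusted p = 0.00214) lower, and Apoa2 higher (0.73, adjusted p = 0.0455). That fit called 9.64% of all genes. With all females and no filter beyond 1 count, edgeR called the endothelial marker Lyve1 higher in KO females (1.11, adjusted p = 0.0474). With all females Apob was also called lower by DESeq2 (adjusted p = 0.0459) and by edgeR with no filter beyond 1 count (0.00599). Over all genes these fits called 305 and 484. Marco was high in KO female 1070 (307.1 CPM) and wild type male 1086 (242.8 CPM). The 18 markers of other immune cells summed to 13.0 to 137.5 CPM, and 4 of them had enough counts to be tested in females and 1 in males. Over 14 endothelial and stellate cell markers the median difference between genotypes was -0.29 in females and -0.16 in males, and over 11 hepatocyte markers it was -0.26 and -0.03. The part of cell composition in the differences of the interferon-stimulated genes was not tested.

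Nnt, Ide and Entpd4, 3 of the genes known to differ between C57BL/6 substrains, were read because the lines were bred apart. Nnt, which carries a deletion in C57BL/6J, had reads in all 12 mice, at 26.6 to 71.4 CPM, and its log2 difference was 0.09 in females and -0.87 in males (unadjusted p = 0.00467, adjusted p = 0.9999, edgeR). Ide differed by -0.28 in females and 0.09 in males, and Entpd4 was listed at 0 in all mice. The values of Nnt overlapped between genotypes in both sexes, and those of Ide in males. In Ide every KO female was below every wild type female, as for 11.9% of all genes. Whether the lines differ in substrain was not tested.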

How the data were processed

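The data are QuantSeq libraries of 12 livers. Trimming, mapping and counting were done by the authors on BaseSpace, and the deposited values are raw counts, not normalized, over 23420 gene symbols in a table for each sex. The submitters' processing notes name STAR, DESeq and mm10, and no source used here gives their versions or the annotation. No unmatched column was present, and 2 symbols are listed again. The total was 1293688 to 4056144 counts per mouse. Reads carry no molecular identifiers, so counting error is a lower bound on the error.

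Genotypes were compared within each sex and with the sexes combined, without a term for sex. The female minus male change and wild type females against wild type males came from a fit of all 4 groups. Each comparison used edgeR 4.0.16 in R 4.3.3 (filterByExpr, TMM, quasi-likelihood F test, two-sided, Benjamini-Hochberg over all genes tested, threshold 0.05). The test was checked on simulated counts. CPM uses TMM-scaled totals, and log2 CPM a prior count of 3. The alternatives were DESeq2 1.42.0, limma-voom (limma 3.58.1), RLE scaling, no filter beyond 1 count, a mean of at least 10 counts, thinning to the smallest total, a term for sex, a fit of the 4 groups together and leaving out each mouse in turn. Tables and figures used Python 3.11.15 with matplotlib 3.10.9, numpy 2.4.6, pandas 2.3.3 and scipy 1.17.1.

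The genes and lists were chosen with earlier results of these data known. The genes named from the lists are those with an unadjusted p under 0.05 and a mean of at least 5 CPM, up to 3 per list and sex with the smallest p, and any gene called there, except for an item that is not reported here. Nnt, Entpd4, Ide, Siah2, the tested genes within 1 Mb of Wdfy1 and the 5 most and 3 least correlated with it were also named. Ifit3b and some of the list genes called between wild type sexes or under an alternative were named after their values were seen. Emr1 and Ifi27l1 were read for Adgre1 and Ifi27 by older or related symbols. Positions and promoters are from RefSeq GRCm38.p6, the build that mm10 names.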

Additional observations from a re-analysis of the deposited data

Results flagged for a closer look

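In 18 groups of 6 mice of one genotype, both sexes together, the highest or lowest mouse was compared with the rest by Dixon's criterion. It marked 6 values. Chance marks about 1 in 20 groups where all mice are alike, and these groups mix the sexes, so that this rate need not hold for them. The Irf3 level was highest, and apart from the rest, in wild type female 1091 (37.9 CPM) among wild type mice and in Siah2 KO female 1105 (32.5 CPM) among KO mice. Irf7 stood apart in KO female 1104 (24.3 CPM). Ifit1 stood apart in wild type female 1089 (15.2 CPM) and in KO female 1104 (14.7 CPM), so that the Ifit1 level in females rests on 1 mouse of each genotype. Nfkbia was lowest, and apart from the rest, in wild type female 1089 (250.5 CPM). All 6 values belong to females, and no Wdfy1, Tlr3, Ticam1, Ifit3 or Isg15 value was marked.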

How the results depend on the processing

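No paired analysis was possible because the groups share no replicate numbers. With 3 mice a group and 1293688 to 4056144 counts a mouse, small changes of genes with few reads were not detectable. The calls over all genes depended on the setting. In females edgeR called 0 genes, DESeq2 305, edgeR with no filter beyond 1 count 484 and the fit of all 4 groups 427, and leaving out 1 mouse gave 0 to 936, the latter without wild type female 1091. In males 0 were called, against 6 by DESeq2, 29 with no filter and 0 to 3 without 1 mouse. With the sexes combined 1 was called, 0 by limma-voom and 0 to 1 without 1 mouse. For the female minus male change 25 were called, 267 by DESeq2, 325 with no filter, 16 after thinning and 0 to 522 without 1 mouse. Between wild type sexes 505 were called, 802 with no filter and 201 to 1043 without 1 mouse. With no filter 1 of the 9 genes, Isg15, was also called there (adjusted p = 0.0398). With Wdfy1 left aside, this was the only call among these 9 in any setting. The genotype difference of Wdfy1 chose that gene and carries no test. The cause of these shifts was not tested.

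Of 625 alternative log2 differences of the 8 genes other than Wdfy1, 572 kept direction and side of the threshold and 52 changed sign. For Wdfy1, 81 of 81 stayed the same. Its differences involving genotype stayed within 1 SD, and those between wild type sexes kept direction and side of the threshold. Isg15 in females gave -0.16 with limma-voom and -0.038 after thinning, and in males 0.13 after thinning. Combined, limma-voom gave -0.082 for Tlr3 and -0.15 for Ifit1, and thinning 0.0094 for Irf3 and 0.010 for Isg15. The female minus male change was -0.0086 for Irf7 with a mean of at least 10 counts and -0.15 for Isg15 after thinning. Leaving out 1 mouse gave, in females, -0.51 to 0.087 for Irf3, -0.43 to 1.25 for Ifit1, -0.43 to 0.49 for Isg15 and -0.31 to 0.023 for Nfkbia, and in males -0.64 to 0.11 for Isg15. Combined, it gave -0.20 to 0.28 for Tlr3, -0.22 to 0.10 for Irf3, -0.58 to 0.69 for Ifit1, -0.27 to 0.54 for Ifit3, -0.52 to 0.25 for Isg15 and -0.050 to 0.11 for Nfkbia. For the female minus male change it gave -0.56 to 0.0013 for Irf3, -0.45 to 0.43 for Irf7, -0.068 to 1.62 for Ifit1 and -0.13 to 0.78 for Isg15.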
